A study of Mus musculus with 173 samples.

Results

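The genes described here are 38 genes of DNA replication and S phase, chosen by name from known biology and all found among the 23307 rows of the expression table. They were followed in single-cell libraries made from C57BL/6 mice aged 8 to 12 weeks. The tissue was the dentate gyrus, the part of the hippocampus where stem cells go on making neurons, and the stated subject was the quiescent stem cell with its first descendants. Strain, tissue and age were the same for every library, and the labels give no treatment, genotype, animal or batch. Titles start with C, N or R, and no label spells these letters out. The number after the letter follows eCFP, which is lower at each next number within C, N and R. Of 172 columns, 26 are N, 4 are R and all others are C. A row for the fluorescent protein eCFP was high in C (median 8739 TPM) and low in N (44.6 TPM). The labels do not name the transgene or its promoter. Libraries reached a TPM of 1 for 1717 to 7192 genes in C and 1600 to 4885 in N. TPM is a share of transcripts corrected for transcript length and keeps no sequencing depth. Cells of unnamed animals are not replicates, so a class is 1 sample and allows no test. Every SD is between libraries of a group. The glial glutamate transporter Slc1a3, a stem cell marker, was at a TPM of 10 or more in all but 1 of the C libraries and in 23 of 26 N libraries. Markers of an oligodendrocyte lineage, vascular, microglial, mature neuronal or red blood cell type had a mean of at least 4 on the log2(TPM + 1) scale in 17 C, 20 of 26 N and 4 of 4 R libraries.

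A cell copies its DNA once per division. Cdc6 and Cdt1 load the ring of Mcm2 to Mcm7 onto origins before S phase, and the GINS proteins and Mcm10 turn that ring into a working helicase. DNA polymerase alpha with its primase starts each strand, the clamp Pcna and its loader hold the other polymerases on DNA, and Fen1 and Lig1 join the fragments of the lagging strand. Most of these genes are known targets of the E2F transcription factors, which are released when a resting cell commits to divide. Genes of mitosis are switched on later, so a cell early in S phase can hold the first set without the second.

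Promoter sequences were not used to choose the members. In the RefSeq promoter table (build GRCm38.p6), 32 of 38 members had an entry, and the 250 bases before each start were searched on both strands for 4 spellings of an E2F-type motif, TTTGGCGC, TTTCCCGC, TTTCGCGC and TTTGCCGC. Matches that overlap were each counted. A match was found for 10 of 32 members (31.2%), against 1 of 29 genes of a mitotic list (3.45%, Cdk1) and 583 of 27025 genes of the table (2.16%). The members with a match were Cdc6, Dtl, Mcm5, Mcm6, Mcm7, Gins3, Pola1, Rfc3, Uhrf1 and Cdca7. Windows are printed for the 6 that overlap no exon of the GENCODE annotation of the same build. Mcm7, Gins3, Rfc3 and Cdca7 overlap one and are named only. The windows below run 5′ to 3′ on the gene's strand with up to 20 bases beside the match, and capitals mark the motif. They lie at chr11:98907993-98908040 (+ strand) for Cdc6, chr1:191575545-191575572 (- strand) for Dtl, chr8:75109336-75109387 (+ strand) for Mcm5, chr1:128359725-128359835 (- strand) for Mcm6, chrX:93632266-93632313 (- strand) for Pola1 and chr17:56304108-56304155 (+ strand) for Uhrf1, all upstream of the start.
Cdc6: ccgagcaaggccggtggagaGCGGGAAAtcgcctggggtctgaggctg
Dtl: atcagaaagcgtgacgtcagTTTGGCGC
Mcm5: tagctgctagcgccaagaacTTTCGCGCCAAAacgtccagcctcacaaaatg
Mcm6: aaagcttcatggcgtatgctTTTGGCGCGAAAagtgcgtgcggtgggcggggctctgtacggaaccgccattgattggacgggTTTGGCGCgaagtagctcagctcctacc
Pola1: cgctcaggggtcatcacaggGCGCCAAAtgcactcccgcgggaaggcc
Uhrf1: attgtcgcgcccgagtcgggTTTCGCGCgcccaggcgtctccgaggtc
Mcm6 held 3 matches and Mcm5 held 2, and in both genes a pair of them overlap as 1 run of capitals. A match is a run of letters and not a measured binding site.

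Motifs known from mitotic promoters were spread differently. The letters CCAAT stood in 62.5% of the members' promoters by gene, 79.3% of the mitotic list and 37.5% of the table. TTTGAA, the core of the element CHR that represses mitotic genes early in the cycle, stood in 3 of 32 members (9.38%), 9 of 29 mitotic genes and 18.3% of the table. Of the other replication genes described further on, 8 of 37 held the E2F-type letters (21.6%).

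The first question was how many members a cell uses. A gene was taken as used at a TPM of at least 10. Most C libraries used few. Of these, 5 used none, 100 used 1 to 5 and 12 used 6 to 9, and the median was 3 of 38. The other 25 used more, with 11 using from 10 to 17 members and 14 using from 19 to 27. N libraries used between 0 and 6 members (median 3). R1, R2, R3 and R4 used 1, 0, 1 and 3. A library was said to use the list when at least 25% of the members (10 of 38) were used. This held for 25 C libraries, or 17.6% (exact Clopper-Pearson 95% interval 11.7 to 24.9), with counting error only. It held for 0 of 26 N libraries, where the same exact interval reaches 13.2%, and for 0 of 4 R libraries, where it reaches 60.2%. By the simpler limit of 3 counts over the total, a count of 0 allows 11.5% in N and 75% in R. The cut lies on a range: 18 C libraries were within 10 percentage points of it, 6 at or above and 12 below. With a gene counted as used at a TPM of 1, the list was used in 62 C and 12 N libraries.

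The mitotic list held 36 other genes, among them Mki67, Top2a, Cdk1, Ccnb1 and Aurkb, and was used when at least 9 of them were. Neither list was used in 78.2% (exact Clopper-Pearson 95% interval 70.5 to 84.7) of the C libraries. Of the others, 11 used replication genes without mitotic genes, 14 used both and 6 used mitotic genes without replication genes. Replication genes were thus accompanied by mitotic genes in 14 of 25 libraries, or 56% (exact Clopper-Pearson 95% interval 34.9 to 75.6). Among the 20 libraries with mitotic genes, 14 used replication genes too, or 70% (exact Clopper-Pearson 95% interval 45.7 to 88.1). Among the C libraries without them, 11 did, or 9.02% (exact Clopper-Pearson 95% interval 4.59 to 15.6). N and R used neither list in any library, and the highest number of mitotic genes was 6 of 36 in N. The 11 libraries with replication genes only used 1 to 8 mitotic genes with a median of 4, beside 2 in the libraries with neither list. Some mitotic genes were used widely, so a low count can come from these alone. Hmmr, Birc5 and Spc24 were used in 67.6%, 41.4% and 40.5% of libraries with neither list. Hmmr and Spc24 were each used in 42.3% of N libraries. In the 11 libraries with replication genes only, Hmmr was used in 8, Birc5 in 1 and Spc24 in 3. Top2a, the topoisomerase that untangles sister DNA, was used in 5 of these 11. Mki67, a coat protein of mitotic chromosomes, was used in 1, and the mitotic cyclin Ccnb1 and the mitotic kinase Aurkb in 0. Cdk1, the kinase that starts mitosis, was used in 2 of them, and in 9 of 14 libraries with both lists.

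**Figure D1:**
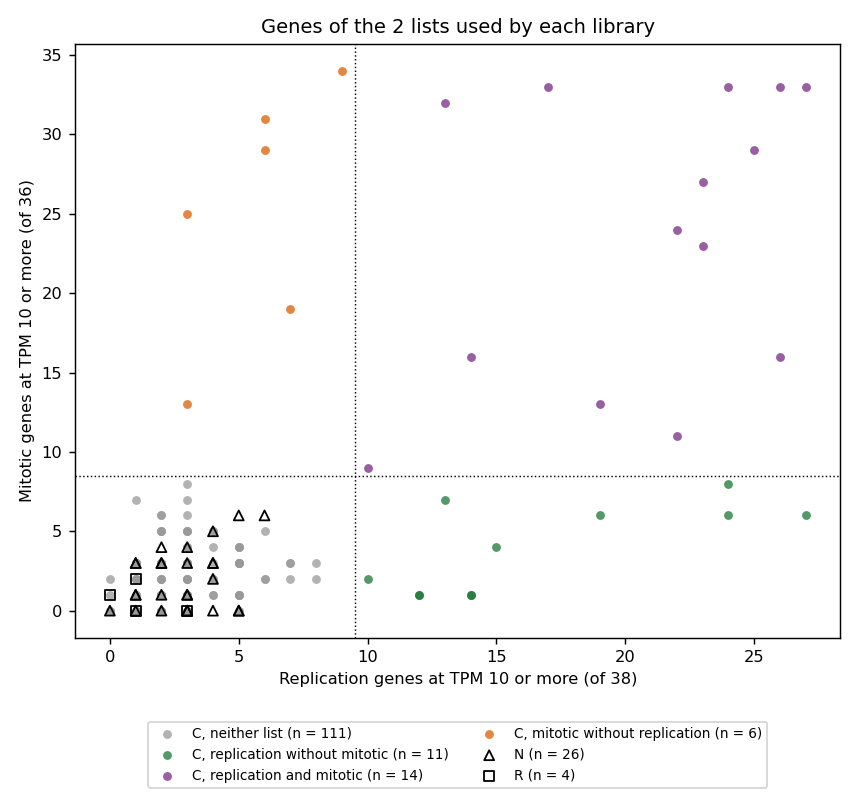
Each point is 1 library, placed by how many of the 38 replication genes (x axis) and 36 mitotic genes (y axis) had a TPM of at least 10, with colours for the use of the lists in C and open triangles and squares for N and R. Dotted lines mark 25% of each list. The N and R libraries stay in the lower left corner with the C libraries that use neither list, 11 C libraries lie to the lower right and 6 to the upper left.

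Libraries on either side of the cut differed by 1 member. C69 and C20 were just inside it with 10 members each, and C113, which used 34 mitotic genes, was just outside it with 9. C124 and C133 followed with 8 members each and neither list. At the top, C75 and C127 used 27 members. C75 also used 33 mitotic genes, while C127 used 6. Requiring 40% of a list left 6 libraries with replication genes only and 9 with both, and requiring 15% left 14 and 23. Genes that reached a TPM of 1 averaged 3571 ± 658 in libraries with replication genes only, 4060.3 ± 905 with both lists, 4129 ± 965 with mitotic genes only and 3688 ± 951 with neither, so these means differed by less than 1 SD. Their eCFP medians were 5816, 6221, 6951 and 9109 TPM, with overlapping ranges, and the part of eCFP in the use of the lists was not tested.

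The licensing factors were seen in few cells. Cdc6, which loads the helicase, was used in 6 C libraries and had a median of 0 TPM over C. All 6 used the replication list, 2 of them without and 4 with mitotic genes, and its highest value was 673 TPM. Cdt1, its partner, was used in 5 C libraries. It was listed at 0 in every N and R library. These were the only members that did not reach a TPM of 1 in 5% of libraries, so they lie outside the all-gene background below. Dtl, the adaptor that marks Cdt1 for destruction in S phase, was used in 7 of 11 libraries with replication genes only, 6 of 14 with both lists, 1 of 6 with mitotic genes only and in none with neither. Its values ran from 0 to 605 TPM with a median of 57.8 in the first of these groups and from 0 to 802 TPM with a median of 2.80 in the second. The ranges overlapped, since some libraries of each group had none.

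The MCM helicase is a ring of 6 different subunits, and all were used together in 2 C libraries, C57 and C125. At least 4 subunits were used in 14 C libraries, all of them among the 25 that use the list, which is partly built in because the subunits are members. Among the libraries with neither list, 78 used no subunit, 30 used a single one and 3 used more. Subunits differed in how closely they kept to the list. To keep a gene from choosing its own cells, libraries were classed by the other 37 members. Mcm5 was then used in 75% of the libraries that use the other members and in 1.69% of the rest. The class that uses the others had 23 to 25 libraries, depending on the gene, and the pairs of percentages below are in this order. Mcm6 was used in 80 against 11.1%, Mcm7 in 58.3 against 10.2% and Mcm4 in 41.7 against 10.2%. Mcm2 (45.8 against 2.54%) and Mcm3 (48 against 2.56%) were rare outside such cells but missing in many of them. Mcm5 ran from 0 to 768 TPM with a median of 161 with both lists, 0 to 1062 TPM with a median of 148 with replication genes only and 0 to 5.65 TPM with a median of 0.790 with neither. No library with neither list reached a TPM of 10 for Mcm5. Mcm4, Mcm6 and Mcm7 were different. Their highest values of any library, 1259, 1381 and 6183 TPM, were in libraries that used neither list.

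Among the factors that turn the MCM ring into a working helicase, Gins2 was used in 60.9 against 5.88% when libraries were classed by the other members. The same shares were 28 against 2.56% for Gins1, 28 against 5.98% for Gins3 and 21.7 against 9.24% for Gins4. The 4 GINS proteins form 1 complex in equal parts, yet no C library used all 4, and the highest number was 3. Mcm10 was used in 5 C libraries and in 0 of the 11 with replication genes only. Dropout of single transcripts in libraries of this kind and absence of the transcript cannot be told apart from a TPM of 0.

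Pcna, the sliding clamp, was used in a larger share of the libraries that use the other members (95.8 against 26.3%) than any other member. It was used in 14 of 14 libraries with both lists, where it ran from 239 to 6408 TPM with a median of 1074. It was used in 10 of 11 libraries with replication genes only, where it ran from 0 to 5051 TPM with a median of 1139.7. In the 6 libraries with mitotic genes only it was used in 0 and ran from 0 to 5.24 TPM with a median of 1.69, so the lowest library with both lists lay above all 6. That group was chosen for few used members, Pcna among them, so the gap is a description. Pcna was also used in 30 libraries with neither list, up to 2181 TPM, in 7 of 26 N libraries and in R1 (1074 TPM) and R3 (60.5 TPM). The clamp loader subunit Rfc4 was closer to the list (68 against 1.71% by the other members) than Rfc2 (58.3 against 16.1%) and Rfc3 (60 against 8.55%), and Rfc5 was used in 16 against 5.13%. Rfc4 ran from 0 to 996 TPM with a median of 449 with both lists and reached 75.7 TPM at most in the libraries with neither.

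The single-strand binding proteins Rpa1, Rpa2 and Rpa3 were used in 14.4%, 10.8% and 16.2% of libraries with neither list and in 11, 9 and 12 of 14 with both. These proteins also serve DNA repair outside S phase. Of the genes that start strands, the primase subunit Prim1 was used in 58.3 against 11.9% by the other members, Prim2 in 36 against 3.42% and the polymerase subunit Pola1 in 48 against 9.40%. Pold1, the catalytic subunit of polymerase delta, was used in 3 C libraries in all and had a median of 0 TPM over C. Lig1, the ligase that seals lagging strand fragments, was used in 83.3 against 6.78% and ran from 3.78 to 849.6 TPM with a median of 263 with both lists. In the 6 libraries with mitotic genes only, Lig1 reached 1.62 TPM at most. The flap nuclease Fen1 was used in 48 against 1.71%, and in no library with neither list.

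The genes of nucleotide supply differed in how widely they were used. Tyms, which makes thymidylate, was used in 82 libraries with neither list (73.9%), 8 of 11 with replication genes only, 14 of 14 with both and 6 of 6 with mitotic genes only. It was also used in 20 of 26 N libraries, so most cells that used Tyms did not use the list. Its values overlapped between these groups. It ran from 0 to 818 TPM with a median of 33.7 with neither list and from 53.4 to 1239.8 TPM with a median of 178 with both. The mouse has a Tyms pseudogene, and how reads shared with it were split is not given in the sources used here, so the level of Tyms is uncertain to that extent. Rrm2, the limiting subunit of ribonucleotide reductase, was used in no library with neither list (highest 3.97 TPM) and in 0 of 26 N libraries (highest 5.43 TPM). It was used in 10 of 14 libraries with both lists, where it ran from 0.440 to 3896 TPM with a median of 599. Rrm1, the large subunit, was used in 11.7% of libraries with neither list and in 4 of the 6 with mitotic genes only, more than any member but Tyms in that group. Tk1, the thymidine kinase that is broken down after mitosis, was used in 8 of 14 libraries with both lists but in 1 of 11 with replication genes only.

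Among the chromatin and repair genes, Slbp, which binds the hairpin of histone messenger RNA, was used in 10 of 11 libraries with replication genes only and in 9 of 14 with both, but also in 12.6% of those with neither. Uhrf1, which guides DNA methylation onto new strands, was used in 64 against 2.56% by the other members, and Cdca7, a partner of the chromatin remodeller Hells, in 45.8 against 4.24%. The histone chaperone subunits Chaf1a and Chaf1b were used in 5 and 9 C libraries. Ung, the uracil glycosylase, was used in 5 of 11 libraries with replication genes only and in 2 of 14 with both, up to 664 and 25.6 TPM. It was listed at 0 in all 6 libraries with mitotic genes only.

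**Figure D2:**
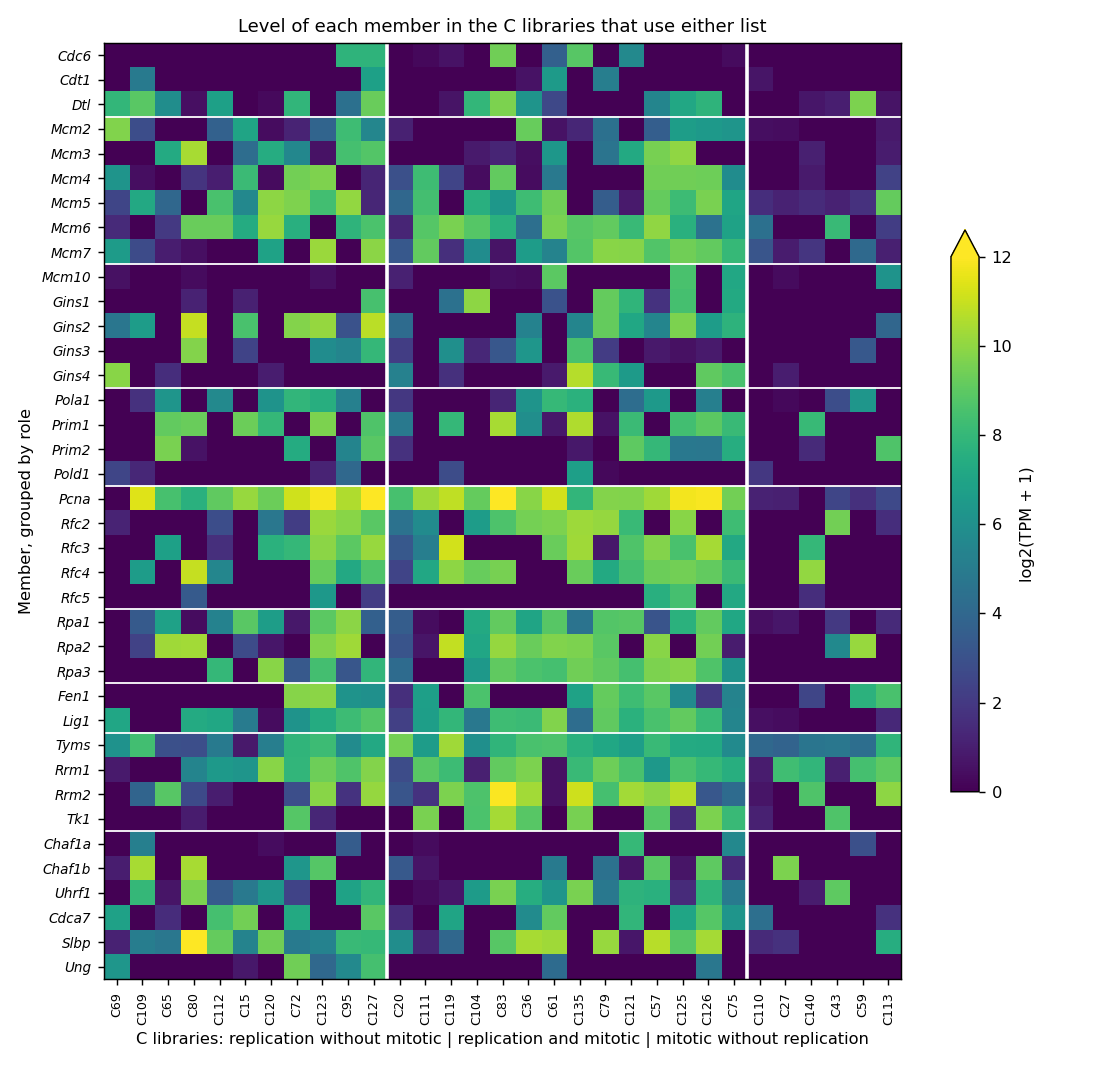
Colours show log2(TPM + 1) of each member (rows, grouped by role) in the 31 C libraries that use either list (columns, ordered by the number of members used within each group), with white lines between groups. Pcna is bright in 24 of the 25 libraries that use replication genes and dark in the 6 with mitotic genes only, while Tyms and Rrm1 are bright in most of both.

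**Figure D3:**
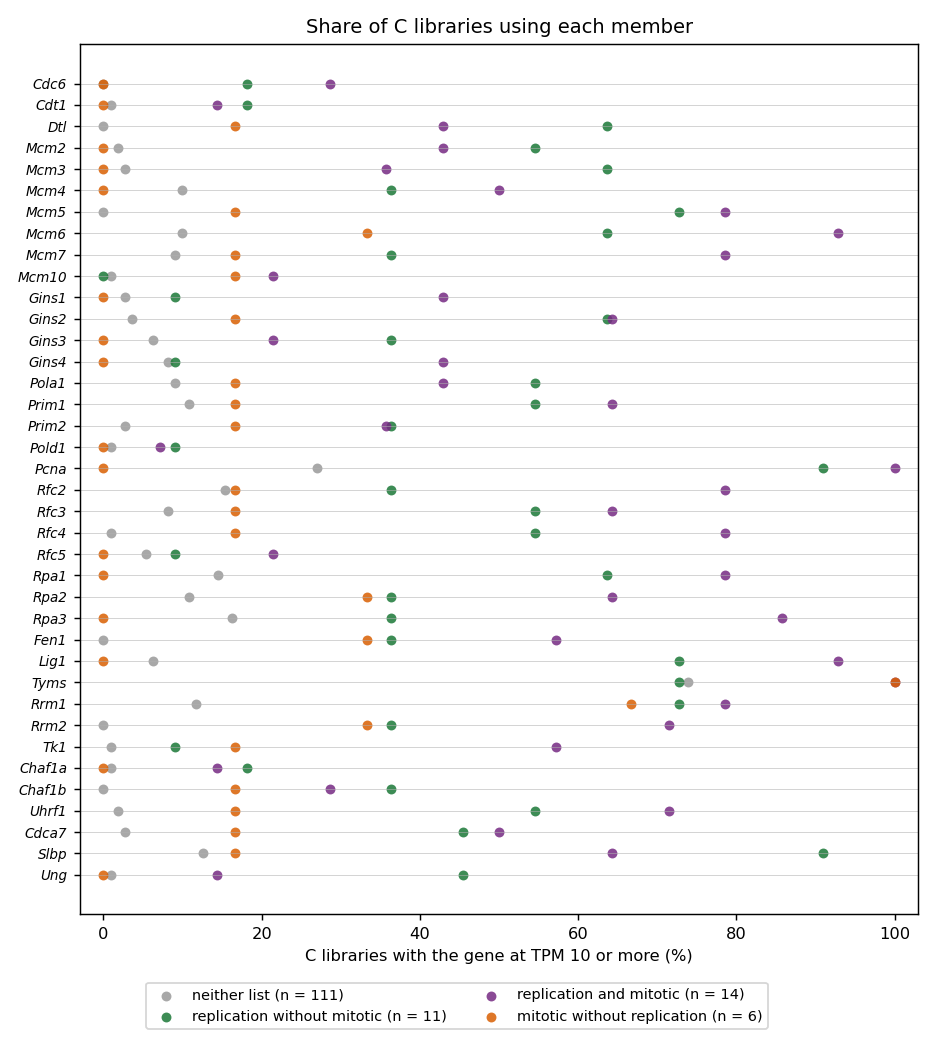
Points give the percentage of C libraries with each member at a TPM of at least 10, by use of the lists (11 libraries with replication genes only, 14 with both lists, 6 with mitotic genes only, and those with neither). Tyms lies above 70% in every group, and Rrm2, Mcm5, Dtl, Fen1, Chaf1b and Cdc6 lie at 0% in the libraries with neither list.

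Set against N as whole classes, C libraries had slightly more of most members. This did not hold for the C libraries with neither list. Their mean log2(TPM + 1) over the members was 0.83 ± 0.36, beside 0.89 ± 0.40 in N and 1.44 ± 1.42 over all of C. The libraries with neither list were chosen for few used members, so their mean is a description. On the log2(TPM + 1) scale, 34 of 38 members had a higher mean in C. So did 7602 of the 12007 genes with a TPM of 1 or more in 5% of libraries. The median difference was 0.58 for the members and 0.17 for those genes. A difference of at least 1 was found for 8 of 38 members, or for 9.98% of all those genes, and no member was lower by 1 (4.19% of all genes). The 8 were Mcm5, Mcm6, Prim1, Pcna, Rpa2, Rpa3, Rrm1 and Slbp. The count was 16 with a pseudocount of 0.1, 0 with a pseudocount of 10 and 4 after rescaling libraries to a common upper quartile, when 31 of 38 means were higher in C. The share of all genes called at these settings was not counted, so these counts show the effect of the setting and nothing particular to the members. Each of the 8 differences is smaller than the SD between C libraries, and the classes overlap. Rpa3 averaged 2.20 ± 3.68 in C and 0.96 ± 2.85 in N, a difference of 1.24. For Prim1 the means were 2.03 ± 3.31 and 0.80 ± 1.97 (difference 1.23), and for Mcm5 1.91 ± 2.58 and 0.75 ± 0.95 (1.17). Pcna averaged 4.0 ± 4.19 and 2.78 ± 3.59 (1.21), and its difference was -2.02 without the libraries high in markers of other cell types, which leaves 6 N libraries. Neuroblast (immature neuron) markers were not among those types. Of the N libraries left, N8, N9, N13, N18 and N19 had neuroblast marker means of 6.86, 5.53, 4.33, 3.53 and 3.66. N11 had a stem cell marker mean of 8.14.

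For the other members named by rule, the differences were 1.07 for Mcm6, 0.98 for Pola1, 0.89 for Lig1, 1.06 for Rrm1, 0.57 for Rrm2, 1.13 for Slbp and 0.96 for Cdca7. The lowest were -0.61 for Prim2, -0.43 for Rpa1 and -0.30 for Fen1. The highest N library was above every C library for 5 members, which were Gins1, Prim2, Rpa1, Fen1 and Rrm1, with Rpa1 at up to 2032 TPM in N and 956 TPM in C, Fen1 at up to 1050.5 TPM in N and 958 TPM in C, and Prim2 at up to 1329.6 and 812 TPM. Of the members, 15 of 38 reached a TPM of 10 in no N library, among them Mcm2, Mcm3, Mcm4, Mcm5 and Rrm2. In R, 34 of 38 did so in no library, and the exceptions were Mcm6 (15.8 TPM in R4), Pcna in R1 and R3, Rfc3 (24.03 TPM in R4) and Tyms (20.2 TPM in R4). R and C are both set against N here, so the comparisons share libraries. On the log2 scale 1 of 38 members was at least 1 higher in R than in N (23.8% of all genes) and 5 were at least 1 lower (17.5%). Pcna was the one higher, with 3 members higher when R2 is left out, where the share of all genes was not counted. Without R1 the difference of Pcna was -0.80. The lowest was Tyms at -3.21.

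Within C, the 20 libraries with mitotic genes were set against those without. The split uses no member. It gave higher means with mitotic genes for 37 of 38 members, beside 6621 of the 12007 genes. Of the members, 32 of 38 were higher by at least 1, beside 17.2% of all genes. None was lower by 1, beside 4.48% of all genes. The members' median difference was 2.34 and that of all genes 0.076. Nucleotide supply led, with 5.46 for Rrm2 and 5.01 for Rrm1. Rfc4 (4.83), Mcm6 (4.41), Pcna (4.21), Mcm7 (4.14), Lig1 (3.97), Uhrf1 (3.58) and Fen1 (3.56) were the highest of their role groups, and Tk1 (3.96) and Rpa2 (3.66) lay between Lig1 and Uhrf1. Prim1 (2.46) and Prim2 (1.62) led among the polymerase and primase genes, and Slbp had 2.58. The lowest were Ung (-0.084), Pold1 (0.45) and Cdt1 (0.50). Libraries that use mitotic genes also differ in cell type markers, given below, and the part these play in the differences was not tested. The spread between libraries is wide. Rrm2 averaged 6.17 ± 4.52 with and 0.71 ± 1.61 without mitotic genes (SD, n = 20 with), Rfc4 5.47 ± 4.42 and 0.64 ± 1.92, and Pcna 7.61 ± 4.28 and 3.40 ± 3.88. With a gene counted as used at a TPM of 1, 20 members were higher by at least 1, and the share of all genes was not counted at this setting.

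A list of 46 other replication genes (origin recognition, checkpoint, polymerase epsilon, E2F and cyclin E genes among them) showed smaller differences. Of them, 28 were higher by at least 1 with mitotic genes, and the median was 1.24. Among the largest differences were those of the histone chaperone Nasp (3.95), the origin recognition subunit Orc6 (3.73), the fork protein Tipin (3.42) and the histone chaperone Asf1b (3.37). The smallest were those of Rnaseh2a (-0.15), E2f1 (-0.047) and Mcm8 (0.018). E2f1, an activator of the members, was used in 9.91% of libraries with neither list and in 1 of 11 and 3 of 14 of those using replication genes without and with mitotic genes.

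Which members appear without mitotic genes was described by setting the 11 libraries with replication genes only against the 14 with both lists. The members chose these libraries, so the differences are descriptions. The libraries without mitotic genes used fewer members, with a median of 14 beside 22.5. The median difference of the members was -0.88, beside -0.11 over all genes, so the list as a whole was lower in them. Of the 38 members, 17 were lower by at least 1 without mitotic genes (16.9% of all genes) and 5 were higher by at least 1 (9.11%). Tk1 (-4.37), Rrm2 (-3.69), Mcm7 (-3.44), Rpa3 (-3.30), Gins1 (-2.73) and Gins4 (-2.49) were lower without mitotic genes, and stayed below 0 in all 11 settings. So did Fen1 and Rfc5, whose main values are given below. Some came near 0 in their weakest setting, with -0.093 for Gins4, -0.23 for Rfc5, -0.43 for Fen1 and -0.61 for Gins1. These settings include the main one. They also include the run without C27, which lies in neither group and so could not change the values. Tk1 was listed at 0 in 8 of 11 libraries without mitotic genes, with a highest value of 455 TPM, and in 5 of 14 with them, with a median of 333 TPM. Mcm7 had medians of 0.930 and 344 TPM. The ranges overlapped for both genes.

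Members with higher means without mitotic genes kept that direction in fewer settings. Ung (2.51), Mcm3 (1.93), Gins2 (1.52) and Dtl (1.33) all turned below 0 when a library used a list at 15% of its genes, and when a gene counted as used at a TPM of 1. The others named by rule lay at 0.93 for Chaf1b, 0.75 for Pola1, 0.29 for Prim2, -0.58 for Rfc5, -0.97 for Pcna, -1.05 for Rrm1, -1.62 for Fen1, -1.93 for Lig1 and -2.20 for Tyms. Slbp had a difference of 0.84. Chaf1b, Pola1, Prim2, Slbp and Pcna also lay on either side of 0 over the settings, and Lig1, Rrm1 and Tyms lay above 0 when a list was used at 40% of its genes. By role, all 4 genes of nucleotide supply, all 3 single-strand binding genes and both fragment joining genes were lower by at least 1 without mitotic genes, and none of the 4 polymerase and primase genes differed by 1.

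**Figure D4:**
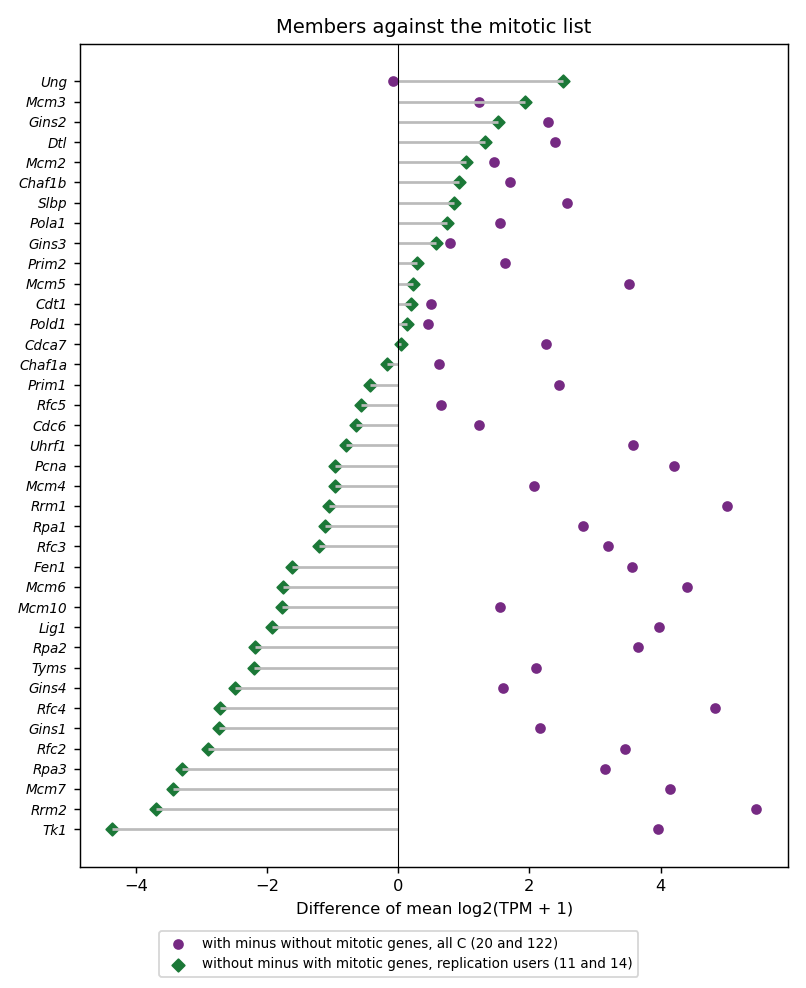
For each member, circles give the difference of mean log2(TPM + 1) between the 20 C libraries with mitotic genes and those without, and diamonds that between the 11 libraries with replication genes only and the 14 with both lists. Of the 38 circles, 37 lie right of 0, and diamonds run from -4.37 for Tk1 to 2.51 for Ung.

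The last question was what kind of C cell uses the members. The mean of 12 stem cell markers, on the log2(TPM + 1) scale, was 7.73 ± 1.57 with neither list, 6.25 ± 1.48 with replication genes only, 5.73 ± 1.82 with both and 4.63 ± 1.02 with mitotic genes only. For 10 markers of intermediate progenitors, the dividing descendants of stem cells, it was 1.27 ± 1.04, 2.42 ± 2.07, 3.15 ± 1.5 and 2.98 ± 1.28 in the same order. The groups overlapped in both means. Of the 12 stem cell markers, 9 had a lower median TPM with replication genes only than with neither list and 2 had a higher one, Thrsp (2789 against 1939 TPM) and Sox2 (5 against 2.72 TPM). With both lists 10 were lower and 1 was higher, Lpar1 (23.3 against 9.84 TPM). With mitotic genes only 10 were lower and Sox2 was higher, at 13.5 TPM. Of the 10 progenitor markers, 5 were higher and 1 lower with replication genes only, and 8 were higher and none lower with both. Single markers differed widely, and those that follow were picked with their values in view. Aldoc, an astroglial enzyme, had a median of 6208 TPM with neither list, 1788 with replication genes only, 21.8 with both and 23 with mitotic genes only. Hopx, of quiescent stem cells, had medians of 334, 165, 73.4 and 4.79 TPM. Sox11, a neurogenic transcription factor, had 0.650, 80.8, 120.1 and 305 TPM. Gadd45g, a gene of cycle exit, had 0, 20.4, 78.5 and 0.795 TPM. Eomes, the marker of intermediate progenitors, was used in 3 libraries with neither list, 3 of 11 with replication genes only, 7 of 14 with both and 3 of 6 with mitotic genes only.

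The 11 libraries with replication genes only were of more than one kind. C95 used 24 members with a stem cell marker mean of 8.36 and an intermediate progenitor mean of 0.085. C109, C120 and C65 were alike, with stem cell means of 7.17, 6.72 and 6.97 and progenitor means of 0.24, 0.26 and 1.91. C15 (7.89 and 2.77) and C69 (7.41 and 3.22) were also high in stem cell markers. C127, C123 and C112 had progenitor means of 5.22, 5.48 and 4.74, close to their stem cell means of 4.95, 4.51 and 5.17. C72 lay between, at 5.77 and 2.27. C80 stood apart, with an oligodendrocyte precursor marker mean of 6.74 and a stem cell mean of 3.89. These libraries were singled out after their values were seen.

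Libraries with both lists were spread as widely. C20, C61, C83, C121 and C111 had stem cell means from 7.11 to 8.78, and C126, C79, C57, C135 and C36 had progenitor means from 4.25 to 5.85. C125, with all 6 MCM subunits, had the lowest stem cell mean of the 14, 2.42. Markers of other cell types were high in 1 of the 25 libraries that use replication genes (C80) and in 2 of the 6 with mitotic genes only. These were C113, with an oligodendrocyte precursor mean of 5.53, and C140, with an endothelial mean of 4.58. C27, whose column fits 2 titles, was among the mitotic libraries without replication genes, with an oligodendrocyte precursor mean of 3.25. The 17 C libraries with high means of other cell types can be left out. Then 10 libraries use replication genes only, 14 both and 4 mitotic genes only. High progenitor markers also occurred without replication genes. C131 and C138, with progenitor means of 6.81 and 5.87, used 6 and 2 members and neither list.

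**Figure D5:**
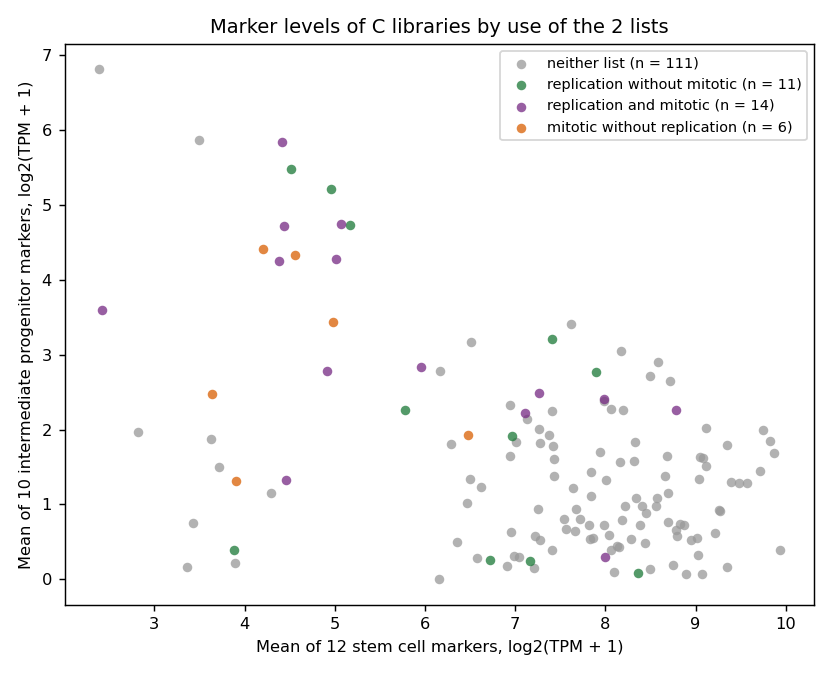
Each point is a C library, placed by its mean over 12 stem cell markers (x axis) and 10 intermediate progenitor markers (y axis) in log2(TPM + 1) and coloured by its use of the replication and mitotic lists. Libraries with neither list (grey) crowd at the lower right, and those with replication genes (green, n = 11, and purple, n = 14) spread from that crowd to the upper left.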

How the data were processed

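Single cells of the dentate gyrus were sequenced from total RNA. Gene values are TPM, made with RSEM by the authors and deposited as 1 table, per the submitters' processing notes. They name the build mm9, and no aligner or annotation is named there. TPM keeps no depth, and 78.5% of values are 0. Classes are the first letters of the titles. Column C27 fits 2 titles and was used as C. No column pair is identical. Means were taken of log2(TPM + 1) with a pseudocount of 1, and a difference of at least 1 was counted. Exact binomial intervals cover counting error only. With 1 sample per class no test was run. Python 3.11.15, pandas 2.3.3 and scipy 1.17.1 were used, and the differences were tested on simulated data. The members and lists were chosen with earlier results of these data known. Named genes are the 2 members of each of 6 role groups with the highest difference and the 3 lowest of all, 5 named mitotic genes, and the 5 highest and 3 lowest other replication genes, of which 1 is not reported here. Other names were picked with their values in view. Alternatives changed the pseudocount, scaling, filter, cuts and libraries. The split by title number, the runs without C27 or Tyms and 2 runs on markers were chosen after seeing the data.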

Additional observations from a re-analysis of the deposited data

Results flagged for a closer look

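In the R class, 17 members had a highest library whose gap to the next, divided by the range of the 4 libraries, was above Dixon's 95% critical value. Chance flags about 1 in 20 groups only where values are normally distributed, and most values here lie near 0. A gene listed at 0 in 3 of the 4 libraries and above 0 in the other, such as Mcm7 or Mcm10, is always flagged. The number of flags can therefore not be read against that rate. Only 3 of the 17 reached a TPM of 10, which were Pcna at 1074 TPM in R1, Rfc3 at 24.03 TPM in R4 and Tyms at 20.2 TPM in R4. In R1, Mcm10 stood at 2.43, Gins1 at 3.81, Rpa1 at 0.95 and Rrm1 at 2.09 TPM. In R2, Pola1 stood at 0.28 and Prim2 at 0.92 TPM. In R3, Gins2 stood at 0.84, Prim1 at 0.46, Rfc5 at 5.06, Tk1 at 0.56, Chaf1a at 0.18 and Uhrf1 at 0.51 TPM. In R4, Mcm7 stood at 2.2 and Chaf1b at 1.95 TPM.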

How the results depend on the processing

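Over the alternatives, 97 counts or medians and 413 values of single genes stayed close to the main value, and 39 and 3 moved further. Close meant within 1.5 times for counts and percentages, and within 1 SD for other values. That SD was between the members for median differences, and between libraries for single genes and marker means. For single genes it is wide, as for Prim1 at 3.31 within C beside a C minus N difference of 1.23. A single gene value could thus move far and still count as close, so the 413 is no measure of stability. Another 16 single gene values, with a main difference of at least 1 in size, changed sign. Sign changes of smaller differences were not counted apart and lie among the values that stayed close or moved. TPM keeps no depth, so no value here has a counting error of its reads, and absence cannot be told from a missed transcript. The cause of the changes below was not tested. Apart from the run without the filter, the share of all genes called was not counted at the changed settings. The member counts at those settings therefore have no background beside them. Members at least 1 higher in C than in N numbered 8, but 16 with a pseudocount of 0.1, 0 with 10 and 4 after upper quartile rescaling. The Pcna difference was -2.02 without libraries high in markers of other cell types, where only the 6 N libraries described above are left. Members at least 1 higher in R than in N numbered 1 (3 with a pseudocount of 0.1, 0 with 10, and 1 to 3 leaving out 1 R library, 3 without R replicate 2). Members lower in R numbered 5 (12 and 2 with those pseudocounts), and Pcna ran from -0.80 without R replicate 1 to 2.55 without R replicate 2. Without the filter on low values, 5.14% of all genes were higher in C than in N and 8.95% were higher with mitotic genes.

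Settings for the use of a gene or list moved the counts most. With a gene used at a TPM of 1, 62 C and 12 N libraries used replication genes, 49 C used both lists, 24 used mitotic genes only, and 20 members were higher with mitotic genes. At a TPM of 100, 7 used replication genes only. With a list used at 15% of its genes, 1 N library used replication genes and 23 C used both lists. At 40%, 15 C libraries used replication genes, 6 of them only and 9 with mitotic genes. By a mean log2 of at least 3, 7 used replication genes only. Title numbers 1 to 100, the C libraries with more eCFP, held 13 users (6 replication only, 7 both) and 3 with mitotic genes only, and higher numbers held 12 (5 and 7) and 3.

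Between replication only and both lists, the 5 members at least 1 higher became 3 with a pseudocount of 10 or with libraries of 3000 to 5000 genes, 0 at a TPM of 1 or a list at 15%, 10 at a TPM of 100 and 13 at 40%. The 17 lower became 7 at a TPM of 100, 29 at 15% and 8 at 40%. At a TPM of 1 the differences were -0.75 for Mcm3, -0.72 for Gins2, -0.94 for Ung and -0.16 for Dtl. At 15% they were -1.68, -3.26, -0.90 and -1.29. At 40% they were -0.68 for Gins2, 0.83 for Lig1, 0.083 for Rrm1 and 0.43 for Tyms. Dtl had -0.17 at a TPM of 100 and -0.026 with libraries of 3000 to 5000 genes. No paired analysis was possible because no test was run and title numbers follow the order of eCFP within a class, so equal numbers pair no cells.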

Other observations

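Other replication genes differed in whether they came with mitotic genes. Hells, a chromatin remodeller, was used in 7 of 11 libraries with replication genes only, 8 of 14 with both lists and 1 with neither. Dut, which removes dUTP, was used in 8 of 11, 8 of 14 and 5 with neither. Gmnn, the inhibitor of Cdt1, was used in 2 of 11, 8 of 14 and none with neither, and Asf1b, a histone chaperone, in 0 of 11, 7 of 14 and 1 with neither. The cyclin E gene Ccne1 was used in 2 C libraries, both with both lists. Mcmbp, a partner of the MCM subunits, was used in 38 libraries with neither list. These genes were picked from the list after their values were seen, and none of these differences was tested.

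Within C, N and R the title numbers run in the order of eCFP, with no step up in any class. In C, eCFP is 33811 TPM at the first number and 482 TPM at the last. The 42 C libraries with numbers above 100 have 482 to 5266 TPM of eCFP and held 12 of the 25 that use replication genes. The 100 with numbers up to 100 have 5513 to 33811 TPM and held the other 13. The labels name no batch.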
